A study of Mus musculus with 6 samples.

Results

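The genes described here are 7 cyclins (Ccnd1, Ccnd2, Ccnd3, Ccne1, Ccne2, Ccna2 and Ccnb1) and 3 cyclin-dependent kinases (Cdk1, Cdk2 and Cdk4), 10 of the 31879 named genes in the table. They were chosen by name for their part in the core cell cycle machinery, with earlier results of these data known. For 9 of them the file's own symbol was used, and Cdk1, which the file lists under the older symbol Cdc2a, was found by its transcript identifier. Values come from polyA RNA of the TT-FHAgo2 line of mouse embryonic stem cells, where doxycycline controls expression of Argonaute 2 (Ago2), the protein that microRNAs guide to their targets. In one condition, called off doxycycline, cells were without the drug (0 µg/mL) for 96 h. In the other, called doxycycline, cells received 2.5 µg/mL for 48 h, a dose the labels tie to wild-type Ago2 levels. All cells had been kept in 0.1 µg/mL doxycycline beforehand and were grown in serum with leukemia inhibitory factor. The line is clonal, its transgene promoter is not given in the sources used here, and the drug, the hours of culture and the Ago2 level cannot be told apart in this design. Each condition has 2 strand-specific libraries, numbered 0 and 1 in the files.

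Cyclins are the regulatory subunits that switch cyclin-dependent kinases on, and their abundance moves through the division cycle while the kinases themselves are more stable. D-type cyclins bind Cdk4 (and Cdk6) early in G1 and start the phosphorylation of the retinoblastoma proteins. E-type cyclins bind Cdk2 at the entry into S phase, cyclin A2 serves S phase and G2 with Cdk2 and Cdk1, and cyclin B1 with Cdk1 drives mitosis. Mouse embryonic stem cells have a short G1 phase and are known for high cyclin E-Cdk2 activity through most of the cycle. In these cells microRNAs of the miR-290 and miR-302 families are known to favour passage from G1 to S phase, in part by lowering the kinase inhibitor Cdkn1a and the retinoblastoma relative Rbl2, while let-7, miR-15, miR-16 and miR-34 are known in other cells to repress cyclins and their kinases.

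All 10 genes passed the minimum for testing, namely a condition mean of 1 FPKM or more (fragments scaled by transcript length and library total). Ccne2 and Cdk2 rose in cells off doxycycline, and Ccne1 and Ccnb1 fell, with log2 changes between 0.44 and 0.48 and of -0.48 and -0.50 (off doxycycline minus doxycycline, on the log2(FPKM + 0.5) scale). The other 6 genes (Ccnd1, Ccnd2, Ccnd3, Ccna2, Cdk1 and Cdk4) did not pass limma at a Benjamini-Hochberg adjusted p of 0.05 over all genes. The 4 genes called are 40% of the set, and 40.3% of the 13268 genes tested were called (19.4% higher, 20.9% lower), so the set was called about as often as genes at large. Its median log2 change was 0.06, against -0.06 over all genes tested, and its median absolute change was 0.35, against 0.32. In 7 of the 10 genes the libraries of the conditions did not overlap, which held for 73.1% of all genes tested. The E-type cyclins moved in opposite directions, and the D-type cyclins all lay above 0 without passing.

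**Figure D1:**
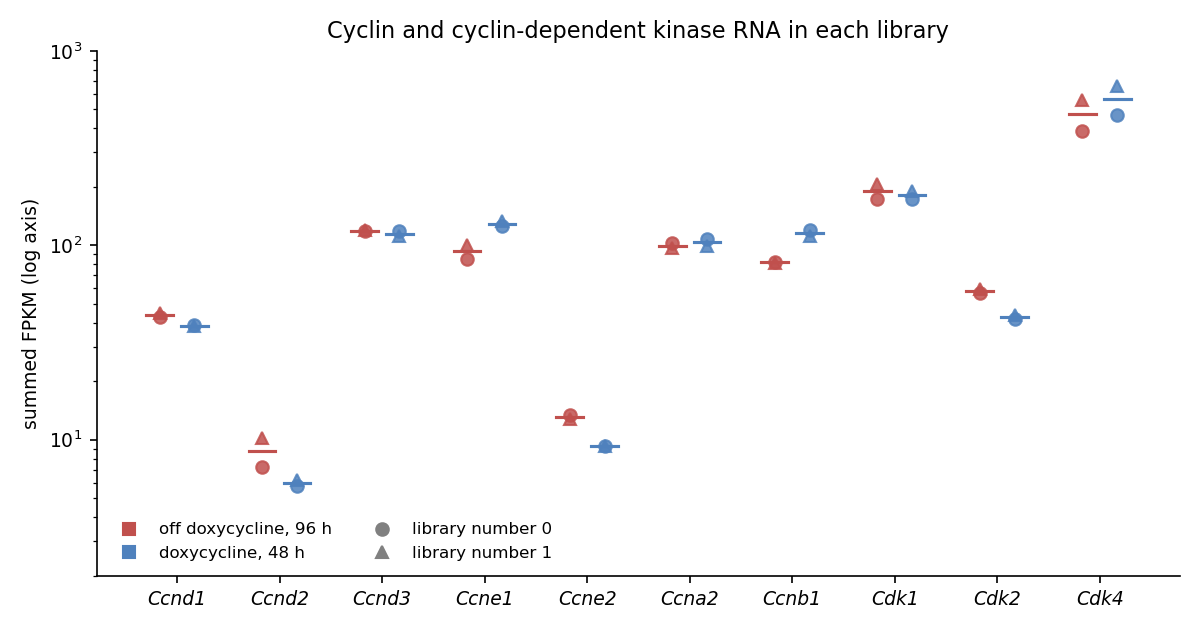
Summed FPKM (log axis) of each of the 10 genes in each library, off doxycycline at 96 h left of doxycycline at 48 h, with circles for libraries numbered 0, triangles for those numbered 1 and bars for means. The lowest value was that of Ccnd2 (5.78 FPKM in a doxycycline library) and the highest that of Cdk4 (657 FPKM in a doxycycline library), and the libraries of the conditions did not overlap for Ccnd1, Ccnd2, Ccnd3, Ccne1, Ccne2, Ccnb1 and Cdk2.

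Ago2 was read first, as the gene under control. Its sum per gene does not separate RNA of the transgene from any RNA of the cell's own Ago2 locus. It stood at 28.7 and 28.8 FPKM off doxycycline, against 35.2 and 36.7 FPKM in doxycycline (log2 change -0.32, SE 0.08, limma adjusted p = 0.0293). The difference follows the labels but is small, and it did not pass when any 1 library was left out (adjusted p between 0.0779 and 0.207). All 8 embryonic stem cell markers examined reached 1 FPKM, with sums of 4073 to 4632 FPKM off doxycycline and 3853 to 4321 FPKM in doxycycline. Nanog was higher off doxycycline, and Zfp42 and Klf4 were lower. Of 8 fibroblast or mesenchymal markers 2 reached 1 FPKM (all 8 summed to 5.07 to 5.12 FPKM off doxycycline and 4.30 to 4.42 in doxycycline), and Col3a1 and Postn were at 0 in every library. Of 10 markers of differentiated and extraembryonic cells 2 did so, Gata4 and Pax6 (all 10 summed to 6.39 to 8.36 FPKM off doxycycline and 6.21 to 7.55 in doxycycline). Gata4 was higher off doxycycline (log2 change 0.68, limma adjusted p = 0.0373). The part of these markers in the changes below was not tested, and in bulk RNA fewer cells of a type, or of a cycle phase, cannot be told apart from less RNA per cell. Low values in the libraries numbered 1 stepped in whole reads and gave totals of 46.7 M fragments off doxycycline and 46.5 M in doxycycline (M, mega). The depth of the libraries numbered 0 could not be read. Those totals put between 1209 (Ccne2) and 17255 (Cdk4) estimated fragments behind each gene in the library numbered 1 off doxycycline, and between 885 and 19848 in its doxycycline counterpart. Counting error alone is then at most 2.88% and 3.36%. No label says that the libraries of a condition are from separate cultures, and their spread, on which every p-value here rests, may be technical only.

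Ago2 acts through short matches between a microRNA and its target. To show which of these genes carry such matches, the mature microRNAs are printed first, from the RefSeq table on GRCm38.p6, with the seed (bases 2 to 8) in capitals and the place of the mature strand in the genome. The first pair shares 1 seed, as does the pair of miR-15a and miR-16, and the miR-17 seed is that of the first pair moved by a base.
miR-294-3p (chr7:3220691-3220712, plus strand): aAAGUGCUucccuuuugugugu
miR-302b-3p (chr3:127545275-127545297, plus strand): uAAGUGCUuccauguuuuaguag
miR-17-5p (chr14:115043684-115043706, plus strand): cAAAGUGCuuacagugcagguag
miR-15a-5p (chr14:61632075-61632096, minus strand): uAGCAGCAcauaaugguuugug
miR-16-5p (chr3:69009918-69009939, plus strand): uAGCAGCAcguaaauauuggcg
miR-34a-5p (chr4:150068473-150068494, plus strand): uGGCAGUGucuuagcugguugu
let-7a-5p (chr13:48538239-48538260, minus strand): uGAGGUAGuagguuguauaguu
The letters searched, on the transcript strand only, were the 7mers AGCACTT (miR-294, miR-302b), GCACTTT (miR-17), TGCTGCT (miR-15a, miR-16), CACTGCC (miR-34a), CTACCTC (let-7a), TACTTGA (miR-26a), TTTGCAC (miR-19b) and GTGCAAT (miR-92a). A 7mer followed directly by an A was counted as an 8mer. AGCACTT and GCACTTT overlap by 6 bases. Of 21140 annotated 3′ untranslated regions (GENCODE M21), 15.3% hold AGCACTT, 12.2% GCACTTT, 22.2% TGCTGCT, 15.6% CACTGCC, 10.1% CTACCTC, 9.96% TACTTGA, 12.0% TTTGCAC and 6.90% GTGCAAT. Of the 8mers found below, 4.39% of those regions hold that of miR-15a and miR-16, 5.43% miR-34a, 4.30% miR-26a and 5.54% miR-19b. A match in the reference is a description of its letters, and binding was not measured here.

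Ccnd1, Ccnd2 and Ccnd3 encode the D-type cyclins, which link growth signals to Cdk4. None of them passed the test. Ccnd1 (chromosome 7, 152115836 to 152125774, minus strand, NCBIM37, the build of the files) measured 42.6 and 44.9 FPKM off doxycycline, against 38.9 and 38.3 FPKM in doxycycline. Both libraries off doxycycline were above both doxycycline libraries, by a small margin (log2 change 0.18, SE 0.08, 95% interval -0.03 to 0.38, limma adjusted p = 0.134). Ccnd2 (chromosome 6, 127075101 to 127101099, minus strand) measured 7.24 and 10.2 FPKM off doxycycline, against 5.78 and 6.21 FPKM in doxycycline. Again the groups did not overlap, but the libraries off doxycycline lay further from each other than the lower of them lay from the doxycycline libraries (log2 change 0.48, SE 0.17, interval 0.05 to 0.92, adjusted p = 0.0739). That interval leaves out 0 because it is for 1 gene, while the p is adjusted over all genes. Ccnd3 (chromosome 17, 47642000 to 47736632, plus strand), the most abundant D-type cyclin here, measured 118.6 and 119.1 FPKM off doxycycline, against 117.9 and 111.7 FPKM in doxycycline. Its groups were separated by less than the gap between the doxycycline libraries (log2 change 0.05, SE 0.08, interval -0.16 to 0.26, adjusted p = 0.648). Ccnd1 and Ccnd2 passed when values were scaled to TPM over the isoforms used (0.34, adjusted p = 0.0204, and 0.66, adjusted p = 0.0202), and Ccnd2 also without the library numbered 0 off doxycycline (0.72, adjusted p = 0.020), while without number 1 its change was 0.25 (adjusted p = 0.181). Ccnd1 passed with quantile normalization as well (0.29, adjusted p = 0.0294).

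Summed over the 3 genes, D-type cyclin RNA came to 171 ± 3.95 FPKM off doxycycline and 159 ± 4.51 FPKM in doxycycline (SD, n = 2 libraries each, as for every ± below). Ccnd3 supplied most of it in every library, 70.4% and 68.4% off doxycycline and 72.5% and 71.5% in doxycycline. Ccnd1 supplied 25.5 ± 0.336% off doxycycline and 24.2 ± 0.425% in doxycycline, and Ccnd2 5.07 ± 1.09% off doxycycline and 3.77 ± 0.297% in doxycycline. These shares do not depend on how libraries are scaled to each other, and Ccnd3 was a slightly smaller part of the class in both libraries off doxycycline than in either doxycycline library.

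Ccnd1 and Ccnd2 are the D-type cyclins with a match to the miR-294 seed, and in both the match also covers the miR-17 7mer. The miR-15a and miR-16 7mer is found in all 3 D-type cyclins, as an 8mer in Ccnd2. Sites are printed 5′ to 3′ on the transcript strand with the match in capitals, at GRCm38 coordinates that are not interchangeable with those of the files.
Ccnd1, miR-294 and miR-302b (chr7:144931677-144931683, minus strand): ttccatttcaaAGCACTTttg
Ccnd2, miR-294 and miR-302b (chr6:127129341-127129347, minus strand): tccattagaaaAGCACTTtga
Ccnd2, miR-15a and miR-16, 8mer (chr6:127128541-127128548, minus strand): gtttcacggtgTGCTGCTAttt
Ccnd3, miR-15a and miR-16 (chr17:47599294-47599300, plus strand): gttgctttgctTGCTGCTtag
The longest annotated 3′ untranslated region is 2676 nt in Ccnd1, 5173 nt in Ccnd2 and 915 nt in Ccnd3, and a longer region holds more matches by its length alone. Ccnd1 and Ccnd2 each also hold an 8mer for miR-19b, and Ccnd2 an 8mer for miR-26a.

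The E-type cyclins, partners of Cdk2 at the start of DNA replication, moved in opposite directions. Ccne1 (chromosome 7, 38882998 to 38893498, minus strand) measured 85.3 and 101 FPKM off doxycycline, against 126 and 133 FPKM in doxycycline. Both libraries off doxycycline were below both doxycycline libraries (log2 change -0.48, SE 0.11, interval -0.76 to -0.19, limma adjusted p = 0.0257), which is 0.718 times the doxycycline level (interval 0.590 to 0.875). Ccne2 (chromosome 4, 11118498 to 11131926, plus strand) measured 13.4 and 12.8 FPKM off doxycycline, against 9.26 and 9.24 FPKM in doxycycline. Its groups were far apart for their spread (log2 change 0.48, SE 0.08, interval 0.27 to 0.69, adjusted p = 0.0108, or 1.39 times the doxycycline level with an interval of 1.21 to 1.61). Between libraries of the same number Ccne1 changed by -0.56 (number 0) and -0.40 (number 1), and Ccne2 by 0.51 and 0.45. The Ccne1 call did not hold without the library numbered 0 off doxycycline (adjusted p = 0.0753), without either doxycycline library (0.0769 and 0.122), with no minimum level (0.0617), with isoforms that match a known transcript exactly (0.193) or with the most abundant isoform alone (0.399). The Ccne2 call did not hold without either doxycycline library (0.0508 and 0.0542), with the most abundant isoform alone (0.0741) or with isoforms of protein-coding transcripts only (0.0939).

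Together the pair summed to 106 ± 10.5 FPKM off doxycycline and 139 ± 5.13 FPKM in doxycycline. Ccne1 supplied most of this, and Ccne2 made up 13.6% and 11.3% of the sum off doxycycline, against 6.87% and 6.50% in doxycycline. The share of Ccne2 was thus higher in both libraries off doxycycline than in either doxycycline library, whatever the scaling between libraries.

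**Figure D2:**
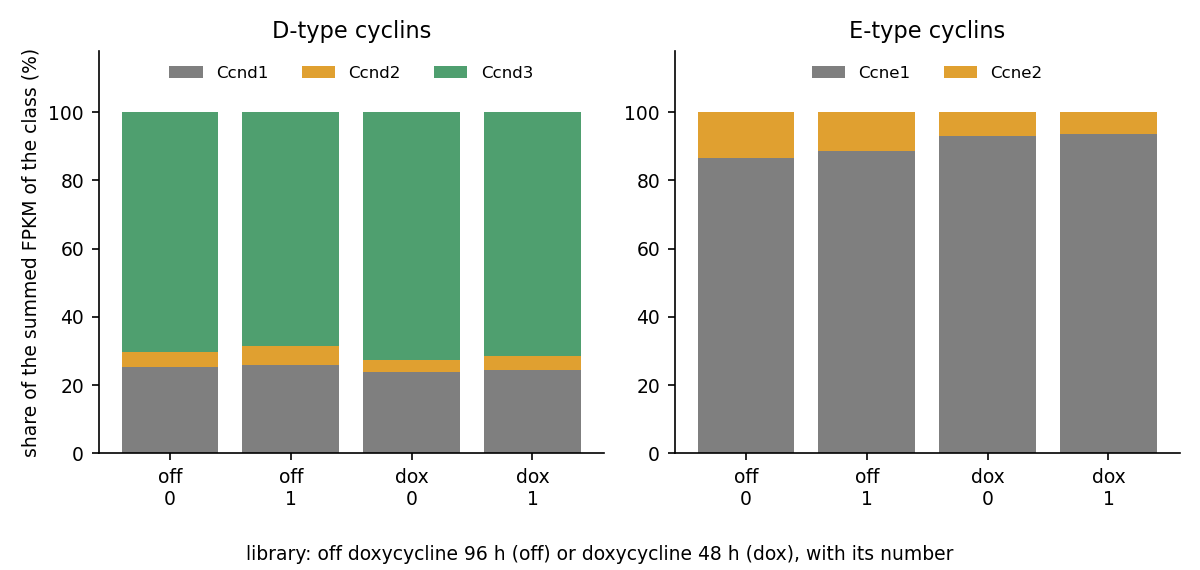
Share of the summed FPKM of the D-type cyclins (left) and of the E-type cyclins (right) in each library, with off doxycycline at 96 h left of doxycycline at 48 h. Ccnd3 holds 68.4% to 72.5% of its class throughout, and Ccne2 holds 11.3% to 13.6% of its class off doxycycline and 6.50% to 6.87% in doxycycline.

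Their seed matches differ too. Ccne1, in a region of 531 nt, holds an 8mer for miR-15a and miR-16 and a 7mer for miR-26a. Ccne2, in a region of 1681 nt, holds an 8mer for miR-34a and 7mers for miR-26a and miR-92a. Neither holds the miR-294, miR-17 or let-7a 7mer. The strongest match of each is shown.
Ccne1, miR-15a and miR-16, 8mer (chr7:38098023-38098030, minus strand): tattttgtaagTGCTGCTAtgt
Ccne2, miR-34a, 8mer (chr4:11203194-11203201, plus strand): ctaaggagttaCACTGCCAttc

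Cyclin A2 and cyclin B1 serve the later phases. Ccna2 (chromosome 3, 36463533 to 36471072, minus strand) measured 102 and 96.3 FPKM off doxycycline, against 107 and 99.6 FPKM in doxycycline. The groups overlapped (log2 change -0.06, SE 0.09, interval -0.29 to 0.17, limma adjusted p = 0.633). Ccnb1 (chromosome 13, 101548605 to 101556552, minus strand) measured 81.8 and 81.5 FPKM off doxycycline, against 119 and 112 FPKM in doxycycline. Both libraries off doxycycline were well below both doxycycline libraries (log2 change -0.50, SE 0.08, interval -0.71 to -0.29, adjusted p = 0.0105), at 0.707 times their level (interval 0.610 to 0.819). The change was -0.54 between the libraries numbered 0 and -0.46 between those numbered 1. The call did not hold without either doxycycline library (adjusted p = 0.0831 and 0.0502). Ccnb1-ps, a pseudogene copy that could share reads with Ccnb1, measured 16.7 and 21.9 FPKM off doxycycline, against 28.7 and 27.3 FPKM in doxycycline (log2 change -0.54, SE 0.14, adjusted p = 0.0362), so the split of reads between them is uncertain. No 7mer searched is present in the 1028-nt region of Ccnb1, and Ccna2 holds only that of miR-19b in its 1369 nt.

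Among the kinases 1 of 3, Cdk2, was called. Cdk2 (chromosome 10, 128134995 to 128147831, minus strand), the partner of cyclins E and A, measured 57.0 and 59.4 FPKM off doxycycline, against 41.6 and 43.8 FPKM in doxycycline. Every library off doxycycline was above every doxycycline library (log2 change 0.44, SE 0.08, interval 0.24 to 0.65, limma adjusted p = 0.0136), at 1.36 times their level (interval 1.18 to 1.57), and the change was 0.45 between the libraries numbered 0 and 0.44 between those numbered 1. The call did not hold without either doxycycline library (adjusted p = 0.101 and 0.0667), with isoforms that match a known transcript exactly (log2 change 0.27, adjusted p = 0.346) or with the most abundant isoform alone (0.01, adjusted p = 0.955). Cdk1 (chromosome 10, 68799383 to 68815696, minus strand), the kinase of mitosis, measured 173 and 206 FPKM off doxycycline, against 172 and 189 FPKM in doxycycline. Its groups overlapped (log2 change 0.07, SE 0.12, interval -0.24 to 0.38, adjusted p = 0.679), although quantile normalization called it higher (0.30, adjusted p = 0.0274). Cdk4 (chromosome 10, 126500523 to 126504976, plus strand), the partner of D-type cyclins, measured 386 and 559 FPKM off doxycycline, against 469 and 657 FPKM in doxycycline. The libraries numbered 1 were higher than those numbered 0 in both conditions, by more than the conditions differed (log2 change -0.26, SE 0.24, interval -0.88 to 0.36, adjusted p = 0.431). Within a number the Cdk4 change was -0.28 and -0.23.

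**Figure D3:**
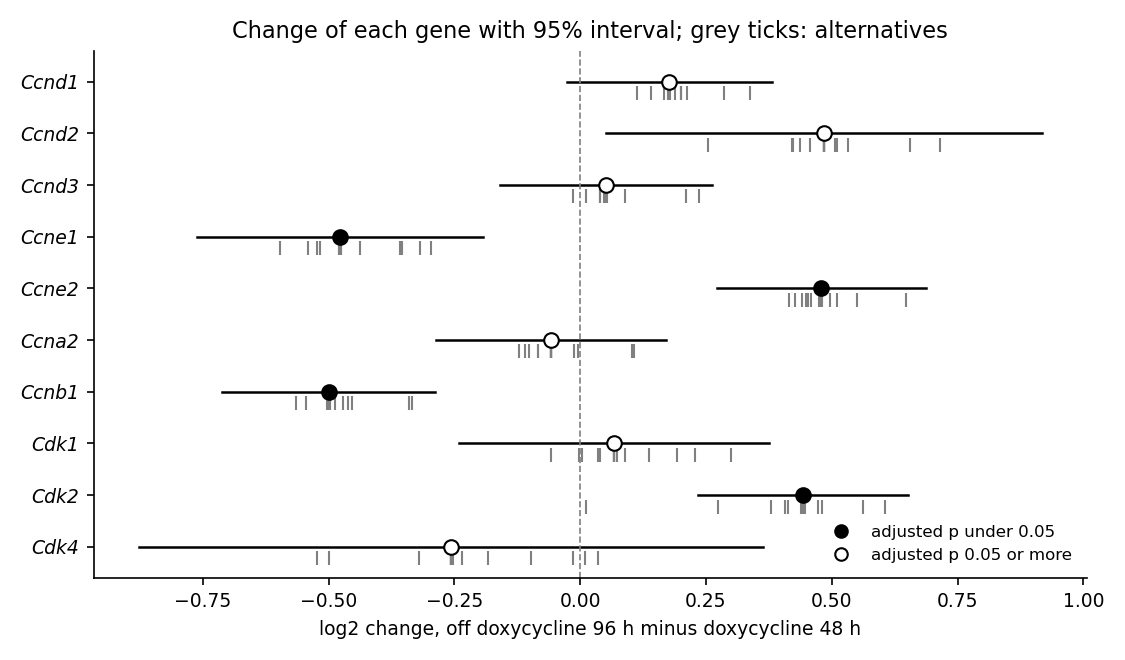
Log2 change of each gene, off doxycycline at 96 h minus doxycycline at 48 h, with its 95% interval for a single gene, filled where limma passed at an adjusted p of 0.05, and with grey ticks for the 17 alternatives. Ccne1 and Ccnb1 lie left of 0 and Ccne2 and Cdk2 right of it in every alternative, with 1 tick of Cdk2 at 0.01.

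Each kinase holds at least 1 match, but the share of all annotated regions with at least 1 of the 7mers searched was not counted. Cdk2 holds the miR-17 7mer in its 1167 nt, and Cdk4 holds the miR-294 7mer at a pair of places and the let-7a 7mer, the only let-7a match among the 10 genes, in 899 nt. Cdk1 holds the miR-15a and miR-16 7mer at 3 places in 3352 nt, of which 2 overlap. The sites of Cdk2 and Cdk4 are shown because these genes are a called and an uncalled partner of the cyclins above.
Cdk2, miR-17 (chr10:128698071-128698077, minus strand): tgttgccatgtGCACTTTggg
Cdk4, miR-294 and miR-302b (chr10:127067562-127067568, plus strand): aatgcttgccgAGCACTTgtg
Cdk4, miR-294 and miR-302b (chr10:127067845-127067851, plus strand): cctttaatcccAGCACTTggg
Cdk4, let-7a (chr10:127067673-127067679, plus strand): gggcccgaggcCTACCTCccc
Not all forms of a gene extend to its matches. By the length of the last exon, counted where an assembled form shares the last intron of the annotated transcript, forms that reach the Cdk4 matches held 15.4% and 2.41% of Cdk4 off doxycycline, against 20.6% and 2.46% in doxycycline, nearly all of it the 2053-nt form described further on. For Cdk1 such forms held between 1.19% and 2.18% of the gene in all libraries. Most of the summed FPKM of Cdk4 and Cdk1 was thus assigned to forms not found to hold the matches. That division is an estimate, and in Cdk4 it went with the library number. Some of those forms cover only part of the gene, as do the 468-nt form of Cdk4 and the 475-nt form of Cdk1. How much whole-length RNA lacks the matches was not measured. In Cdk2 the forms of 2432 and 2166 nt reach the miR-17 match and that of 1590 nt does not. Among the cyclins, forms that end before the matches include the 1225-nt form of Ccnd2 and the 1660-nt form of Ccne1.

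By level, Cdk4 and Cdk1 led in both conditions and Cdk2, Ccnd1, Ccne2 and Ccnd2 came last, in that falling order. In between, the order off doxycycline was Ccnd3, Ccna2, Ccne1 and Ccnb1, and in doxycycline it was Ccne1, Ccnb1, Ccnd3 and Ccna2. Neighbours whose libraries overlapped were Ccna2 and Ccne1 off doxycycline and Ccnb1 and Ccnd3 in doxycycline. The place of Cdk1 and Cdk4 depends on which isoforms are summed: with isoforms of protein-coding transcripts only, an alternative chosen after the isoforms had been seen, Cdk4 measured 182 and 230 FPKM off doxycycline, against 238 and 251 FPKM in doxycycline. Cdk1 on that basis measured 107 and 123 FPKM off doxycycline, against 107 and 117 FPKM in doxycycline, close to Ccnd3.

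The 10 genes have 79 isoforms of the kind used, 42 of them at or above the minimum level, and limma called none of the 42. Its background was 0 of 32943 isoforms, with 6053 at an unadjusted p under 0.05, among them 5 of the 42. Single-isoform values are estimates of how reads divide, and for several genes that division went with the library number and not with the condition. The 468-nt form of Cdk4, annotated as a retained intron, measured 70.7 and 184 FPKM off doxycycline, against 93.5 and 221 FPKM in doxycycline. It took 18.3% to 19.9% of Cdk4 in the libraries numbered 0 and 32.9% to 33.6% in those numbered 1. A coding form of 2053 nt ran the other way, with 58.1 and 12.8 FPKM off doxycycline, against 94.2 and 15.4 FPKM in doxycycline. Both forms differed more between the library numbers than between the conditions. Another large form of Cdk4, of 950 nt, is also annotated as coding (107 and 175 FPKM off doxycycline, 126 and 191 in doxycycline). One of 924 nt is annotated for nonsense-mediated decay (103 and 115 FPKM off doxycycline, 101 and 148 in doxycycline).

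**Figure D4:**
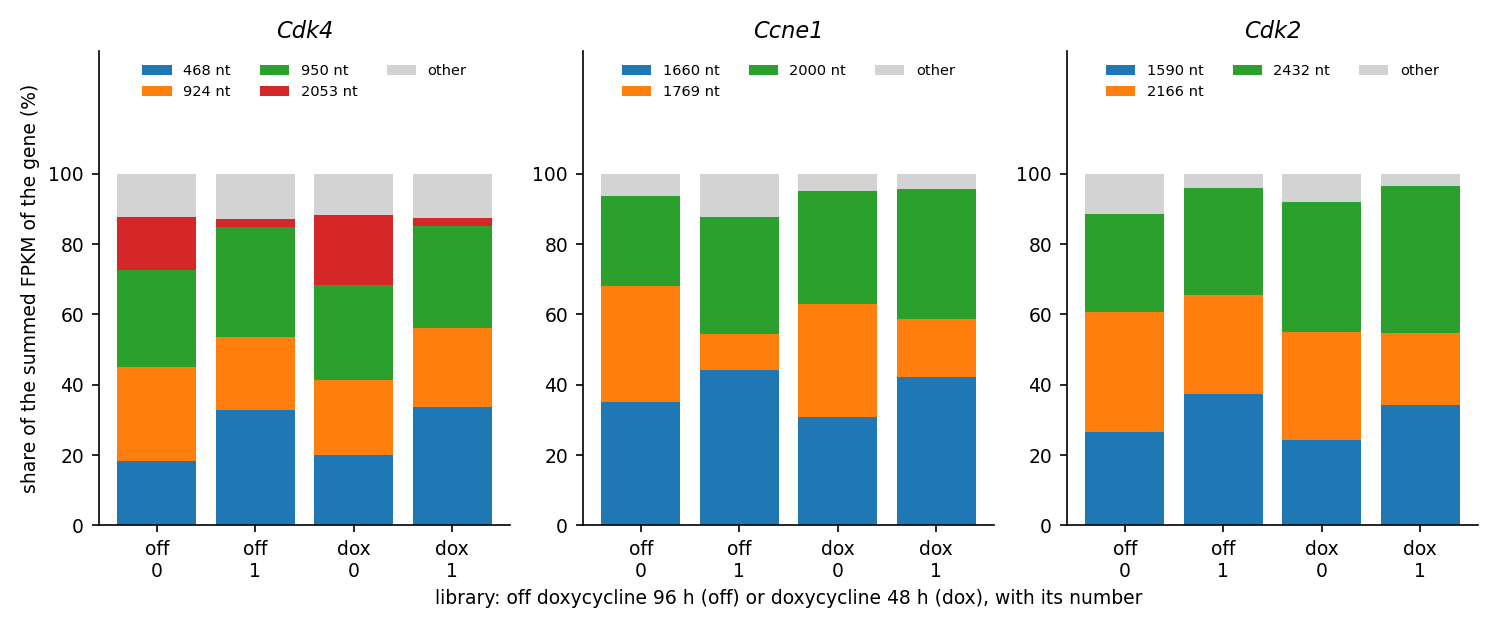
Share of the summed FPKM of Cdk4, Ccne1 and Cdk2 held by each isoform with at least 10% of its gene in either condition, by library, with off doxycycline at 96 h left of doxycycline at 48 h. Some shares go with the library number in both conditions, as with the 468-nt form of Cdk4 (18.3% to 19.9% in number 0, 32.9% to 33.6% in number 1) and the 1769-nt form of Ccne1 (32.0% to 33.1% in number 0, 10.2% to 16.4% in number 1).

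Ccne1 split in a like way. Its 1769-nt form measured 28.2 and 10.3 FPKM off doxycycline, against 40.3 and 21.9 FPKM in doxycycline, its 2000-nt form 21.8 and 33.6 FPKM off doxycycline, against 40.2 and 49.2 FPKM in doxycycline, and its 1660-nt form 29.9 and 44.5 FPKM off doxycycline, against 38.9 and 56.2 FPKM in doxycycline. Within each number all 3 forms were lower off doxycycline, although each form differed more between numbers, relative to its level, than the summed gene did. Ccnd2 was similar, since its 1225-nt form held at most 31.3% of the gene in the libraries numbered 0 and 44.8% to 46.2% in those numbered 1. Its 6430-nt form measured 5.43 and 5.47 FPKM off doxycycline, against 3.97 and 3.43 FPKM in doxycycline, with no overlap.

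For Cdk2 the difference was uneven among forms. The 2432-nt form measured 15.8 and 18.1 FPKM off doxycycline, against 15.4 and 18.2 FPKM in doxycycline, and overlapped. The 2166-nt form measured 19.4 and 16.8 FPKM off doxycycline, against 12.7 and 8.96 FPKM in doxycycline, and the 1590-nt form 15.2 and 22.2 FPKM off doxycycline, against 10.1 and 15.0 FPKM in doxycycline. The higher total off doxycycline was therefore found in the shorter forms, none of which passed on its own. Ccnb1 and Ccne2 each had a form with most of the gene: the 2407-nt form of Ccnb1 measured 66.4 and 71.2 FPKM off doxycycline, against 92.9 and 96.8 FPKM in doxycycline, and the 2908-nt form of Ccne2 9.21 and 8.29 FPKM off doxycycline, against 6.45 and 5.85 FPKM in doxycycline. Both followed their gene, without overlap, whereas the minor 3006-nt form of Ccne2 measured 1.72 and 0.767 FPKM off doxycycline, against 1.67 and 0.833 FPKM in doxycycline, and overlapped. Ccnd1 (3740 nt), Ccnd3 (1899 nt) and Ccna2 (2964 nt) were nearly all of 1 form, which for Ccna2 held 92.4% of the gene off doxycycline and 94.0% in doxycycline. Cdk1 was divided between a coding form of 1253 nt (101 and 116 FPKM off doxycycline, 93.0 and 111 in doxycycline) and a 475-nt retained intron (64.0 and 82.0 FPKM off doxycycline, 63.0 and 70.5 in doxycycline).

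Of 35 further cyclins and cyclin-dependent kinases, 29 could be tested, and 4 rose and 2 fell (20.7% called, against 40.3% of all genes), with a median log2 change of 0.01 and a median absolute change of 0.15. Cdk19, a kinase of the Mediator complex, rose most, with 17.7 and 14.8 FPKM off doxycycline, against 6.36 and 5.58 FPKM in doxycycline (log2 change 1.37, limma adjusted p = 0.00284). Its close relative Cdk8 fell (-0.49, adjusted p = 0.0126), a pair named after the values were seen. Ccng2, an atypical cyclin linked to growth arrest, rose by 0.81 (adjusted p = 0.0091), and Ccng1, its relative and a target of p53, by 0.40 (adjusted p = 0.0202). Cdk18 rose by 0.54 (adjusted p = 0.00823), and Cdk10, the partner of cyclin M, fell by 0.75 (adjusted p = 0.0037). With library medians set equal 10 of the 29 were called, 4 higher and 6 lower, where 46.4% of all genes were called.

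Of 36 listed regulators of the cyclin-dependent kinases, 33 were tested, and 10 rose and 7 fell (51.5% called, against 40.3% of all genes, a difference that was not tested), with a median absolute log2 change of 0.45. With TPM over the isoforms used 36 could be tested, and 15 rose and 6 fell, where 39.3% of all genes were called. The list was drawn up with earlier results of these data known. Cdkn1a, the inhibitor p21, had the largest difference, with 78.1 and 80.8 FPKM off doxycycline, against 15.0 and 15.6 FPKM in doxycycline (log2 change 2.34, limma adjusted p = 0.00147). Rbl2 (p130), a retinoblastoma relative that holds back E2F genes, measured 19.0 and 18.7 FPKM off doxycycline, against 6.40 and 6.38 FPKM in doxycycline (1.49, adjusted p = 0.00178). Cdkn2b (p15), an inhibitor of Cdk4 and Cdk6, measured 4.01 and 4.73 FPKM off doxycycline, against 1.94 and 1.98 FPKM in doxycycline (0.98, adjusted p = 0.00488). Mybl2, which drives transcription of late cell cycle genes such as Ccnb1, was the largest fall, with 157 and 190 FPKM off doxycycline, against 307 and 361 FPKM in doxycycline (-0.95, adjusted p = 0.00764). For each of these 4 the groups did not overlap.

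The other called regulators are given by role and complete the 17. Both relatives of Rbl2 rose, Rb1 by 0.64 and Rbl1 by 0.52, as did E2f2, an E2F transcription factor that Rb1 binds, by 0.80. Cdc25a, a phosphatase that activates Cdk2, fell by 0.47, while Cdc25b, which serves Cdk1, rose by 0.95. Wee1 and Pkmyt1, kinases that inhibit Cdk1, rose by 0.48 and 0.74. Cdkn1c (p57), an inhibitor, fell by 0.54 at a low level, and Cdk2ap1, a protein that binds Cdk2, fell by 0.79. Cks1b, a small subunit of the kinase complexes, fell by 0.58, and Mnat1, which assembles the kinase that activates cyclin-dependent kinases, fell by 0.64. Fbxw7, the ubiquitin ligase subunit that recognises cyclin E, rose by 0.30 at the edge of the threshold (limma adjusted p = 0.0499), and Fbxo5, an inhibitor of the complex that destroys cyclins, fell by 0.56. Activators and inhibitors were thus found on both sides.

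**Figure D5:**
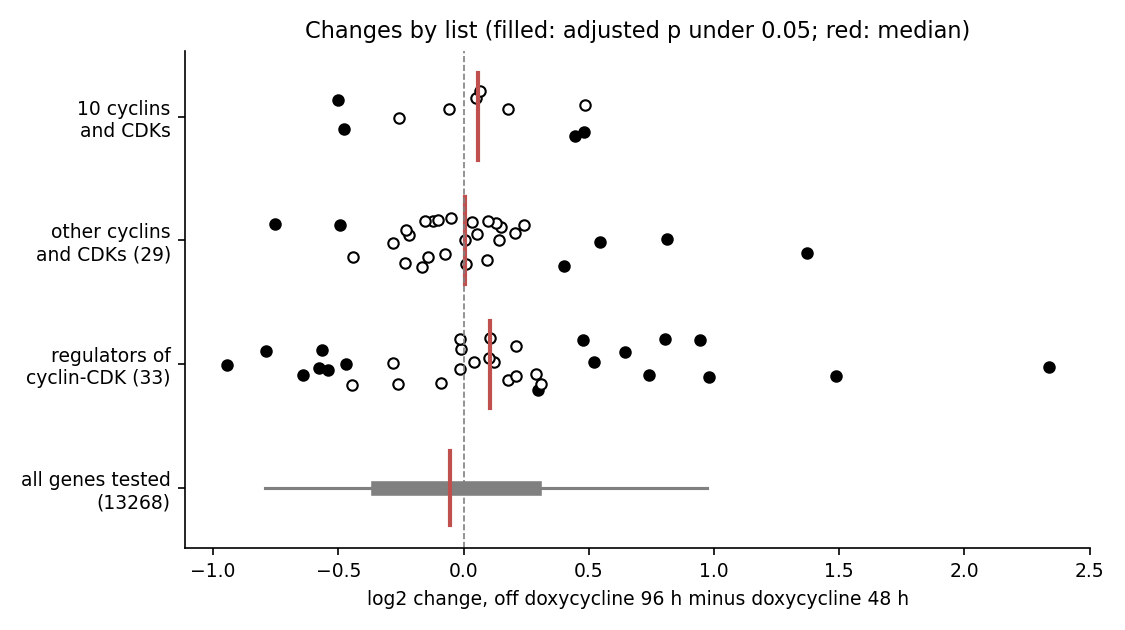
Log2 change, off doxycycline at 96 h minus doxycycline at 48 h, of the 10 cyclins and kinases, 29 further cyclins and kinases and 33 regulators, each point a gene and filled where limma passed. Red bars are medians (0.06, 0.01 and 0.10), and the grey bar gives the middle 50% and 90% of all 13268 genes tested, with a median of -0.06.

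The balance of directions depends on scaling. Of all genes called, 48.2% were higher off doxycycline, 37.9% with library medians set equal and 67.7% with TPM over the isoforms used, and the median of all genes was -0.06, -0.12 and 0.10. Ccne1, Ccne2, Ccnb1 and Cdk2 kept direction and call under each of these, and TPM and quantile normalization each called 6 of the 10 genes (4 higher, 2 lower) in place of 4. Tspan31, which overlaps Cdk4 on the opposite strand, measured 26.5 and 25.6 FPKM off doxycycline, against 36.5 and 35.7 FPKM in doxycycline. Its log2 change was -0.46 (limma adjusted p = 0.0107). Bysl, Exosc9, Ints8 and Pmel overlap Ccnd3, Ccna2, Ccne2 and Cdk2 in the same way. Bysl (-0.40, adjusted p = 0.0363) and Exosc9 (-0.68, adjusted p = 0.0149) were lower off doxycycline. Ints8 (-0.12, adjusted p = 0.241) and Pmel (0.09, adjusted p = 0.422) were not called. The libraries are strand-specific, per the labels' protocols, and whether reads crossed between these partners was not tested.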

How the data were processed

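FPKM per isoform was deposited by the authors, who, per the submitters' processing notes, worked on build NCBIM37 with the tools TopHat2 2.0.9 and Cufflinks 2.1.1. The total behind the scaling is not stated. Of 181027 assembled isoforms, 31251 had no gene name and 8207 were left out for length (under 200 nt) or class, leaving 141569 that match or share a junction with a named transcript. Isoforms under 200 nt, named or not, held between 98.94% and 99.59% of the FPKM of a library. The TPM alternative scaled to the isoforms used only. FPKM was summed per gene, and log2(FPKM + 0.5) was tested with limma 3.58.1 (R 4.3.3; trend, two-sided; degrees of freedom: 2 residual, 3.10 prior). Benjamini-Hochberg adjustment ran over the 13268 genes whose mean reached 1 FPKM in a condition, at 0.05. Fold changes on this scale understate those of low genes. The smallest exact permutation p for 2 libraries against 2 is 0.333. Isoforms were tested alike. Exon positions are as deposited, counted from 1. The files' library numbers 0 and 1 have no counterpart in the labels, so libraries were treated as unpaired. Named were the 10 genes, Ago2, the 4 largest absolute changes of each list, and isoforms with at least 10% of their gene; the remaining called regulators, relatives and markers were added after their values were seen. Members and lists were chosen with earlier results of these data known. The fit and the step search were tested on simulated data. The alternatives changed the pseudocount, filters, isoforms summed, scaling, block and libraries. Samples with spike-in RNA (1 of embryonic and 1 of mesenchymal stem cells) were not analysed here.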

Additional observations from a re-analysis of the deposited data

How the results depend on the processing

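Without the doxycycline library numbered 0 or 1, the 4 called genes kept similar log2 changes with larger SEs. Those changes were -0.52 and -0.44 for Ccne1, 0.48 and 0.48 for Ccne2, -0.45 and -0.55 for Ccnb1, and 0.41 and 0.48 for Cdk2. The SE of Ccnb1, for example, was 0.17 in both fits, against 0.08 with all libraries. With 1 library left out, between 0 and 4 of the 10 genes were called: 0 without either doxycycline library, and 4 without either library off doxycycline, where leaving out number 0 put Ccnd2 in the place of Ccne1. Over the same omissions all genes called numbered 3118 to 4237, other cyclins and kinases 4 to 6, regulators 13 to 17, and Ago2 changed by -0.35 to -0.29. Leaving a single library in a condition assumes that it varies like the other condition. Over 17 alternatives Ccne1, Ccne2, Ccnb1 and Cdk2 kept their direction (-0.60 to -0.30, 0.42 to 0.65, -0.56 to -0.33 and 0.01 to 0.61).

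With isoforms that match a known transcript exactly, 2565 genes were called in all, 2 of the 10, and Ago2 changed by -0.82 without passing. With the most abundant isoform alone, 2023 genes were called, 1 of the 10, 2 other cyclins and kinases and 9 regulators, Ago2 changed by -0.18 without passing, and the doxycycline share of Ccnd3 among D-type cyclins was 73.0%. With TPM, Ago2 changed by -0.16 without passing. With library medians set equal, 10 other cyclins and kinases were called. Uncalled genes changed sign: Ccnd3 to -0.014 with medians set equal, Ccna2 to 0.10 with TPM and 0.11 with quantile normalization, Cdk4 to 0.036 with quantile normalization, and, with a library left out, Cdk4 ranged from -0.52 to 0.0091 and Cdk1 from -0.058 to 0.19 (-0.0016 without the doxycycline library numbered 0). The cause was not tested.

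A replicate block on the library number called 8123 genes, 7 of the 10 (4 higher, 3 lower, adding Ccnd1, Ccnd2 and Cdk4 at adjusted p = 0.0374, 0.0189 and 0.0116) and 13 other cyclins and kinases. Libraries of the same number deviated together (correlation 0.46 over genes), but 2 pairs do not establish pairing and no label ties them.

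With 2 libraries a condition and unknown depth in those numbered 0, a gene whose interval includes 0 cannot be told from an unchanged gene. The intervals differ in width, from that of Ccnd1 (-0.03 to 0.38) to that of Cdk4 (-0.88 to 0.36).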

Other observations

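At the Ccne2 locus, 3 assembled isoforms lie antisense to the gene and were left out of its sum. Together they measured 2.76 and 2.94 FPKM off doxycycline, against 4.49 and 4.44 FPKM in doxycycline, below in both libraries, while Ccne2 itself was higher off doxycycline. The difference was not tested. Ints8, a gene on the opposite strand that overlaps Ccne2, measured 22.4 and 22.7 FPKM off doxycycline, against 24.8 and 24.4 FPKM in doxycycline. Its log2 change was -0.12 (limma adjusted p = 0.241). Whether the antisense isoforms are RNA of Ints8 was not tested.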
